A study of Mus musculus with 8 samples.

Results

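The genes described here are 31 mouse genes of the red cell lineage, taken by name: regulators of erythroid genes, the receptors and enzymes that supply iron and haem, proteins of the red cell membrane and its skeleton, and enzymes and other genes of late erythroid cells. Of these, 30 were measured among the 19505 genes with a symbol on the arrays. Each was read by 1 transcript cluster, the set of array probes that covers the exons of a gene. *Epb41* was not analysed here. RNA from spleens of C57BL/6 mice was compared on Affymetrix Clariom S HT arrays, with 4 arrays from control animals and 4 from lymphoma-bearing animals. Control animals are labelled Trp53KI/KI, a knock-in whose product, according to the methods, is largely inactive unless 4-hydroxytamoxifen is given. Lymphoma-bearing animals are labelled Trp53KI/KI;Vav1DC/DC, so they share that allele and also carry a germline *Vav1* allele, present in all their cells, whose protein lacks part of its C-terminal SH3 domain. Their disease resembles angioimmunoblastic T cell lymphoma, and it arises in CD4+ T cells. The groups therefore differ in disease and in *Vav1* at once, and the 2 cannot be told apart. They also differ in 3 measured genes of the Y chromosome, as given below, and that difference cannot be told apart from the other 2. The labels used here do not give the sex or the age of the animals, nor whether 1 animal stands behind each array, so the p-values cover the spread of these arrays, which may be technical. Below, a spleen with a number stands for the array with that replicate number.

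The spleen of the mouse makes red cells throughout life, and it makes more of them under stress. Erythroid precursors take up iron through the transferrin receptor, build haem in a chain of reactions that starts and ends in mitochondria, and assemble a membrane held by a spectrin skeleton. They do this under the control of GATA1, KLF1 and TAL1 and with erythropoietin as their survival factor. In RNA from a whole organ, a change in the number of erythroid cells and a change in the RNA of each cell cannot be told apart. The methods describe the lysis of erythrocytes with ammonium chloride for cell suspensions. Whether it preceded the RNA of these arrays is not given in the sources used here, the extraction being described as that of the spleen in the methods and of splenocytes in the series record. Its part in the values was not tested.

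Erythroid genes gave signal above the background median in all 8 spleens. The levels of most of them varied widely among the control spleens and little among the lymphoma spleens. All 30 measured genes lay above background on every array, with 5.92 as the lowest log2 value whereas the median of the background probe sets averaged 4.86 on control and 4.82 on lymphoma arrays. That bar is low, and passing it does not show expression. Embryonic *Hba-x* also passed it on every array, at 6.45 to 6.76. The median of all clusters lay between 7.19 and 7.24 on the 8 arrays. The mean log2 value over the 30 genes was 8.73, 7.91, 8.79 and 8.30 in control spleens 1 to 4 and 8.94, 8.81, 8.97 and 8.83 in lymphoma spleens 1 to 4. Control spleens 1 and 3 were therefore high, control spleen 4 lower and control spleen 2 the lowest. The 4 lymphoma spleens all lay above the 4 control spleens, lymphoma spleen 2 only narrowly above control spleen 3. The control means spanned a 1.84-fold range, and the lymphoma means a 1.12-fold range. On average the lymphoma spleens were higher by 0.45 (8.89 ± 0.08 against 8.43 ± 0.41, log2 units, SD, n = 4 in each group), a difference of 0.28 without control spleen 2.

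The same order recurred gene by gene. Control spleen 2 was the lowest control for 24 of the 30 genes, that is 80.0%, against 24.9% of all 22206 transcript clusters. In 22 genes, or 73.3%, it was followed by control spleen 4 and then by control spleens 1 and 3, an order found in 10.2% of all clusters. The exceptions to the first count were *Gata1*, *Klf1*, *Tal1*, *Gfi1b*, *Epor* and *Rhd*. The SD over the control spleens had a median of 0.44 over the 30 genes, against 0.13 over all clusters. Over the lymphoma spleens the medians were 0.12 for both, and without control spleen 2 the median of the 30 genes over control spleens was 0.28. The SD was larger among control spleens for 28 of the 30 genes, or 93.3%, against 54.2% of all clusters. *Klf1* and *Tal1* were the exceptions. By role, the 7 regulators of transcription had median SDs of 0.14 over control and 0.13 over lymphoma spleens, near those of all clusters. The medians were 0.32 and 0.09 for the 8 genes of receptors, iron and haem supply. They were 0.57 and 0.11 for the 9 membrane and skeleton genes and 0.61 and 0.17 for the 6 enzymes and late genes. By the SD over control spleens, 18 of the 30 genes ranked in the top 1% of all clusters and 21 in the top 5%. By the SD over lymphoma spleens, 1 gene, *Kel*, reached the top 5%. These counts describe 4 spleens of each group and were not tested, since genes of a single cell lineage are not independent of each other.

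*Rhag*, which encodes the Rh-associated glycoprotein of the red cell membrane, had the largest SD over control spleens among the 30 genes, at 1.18. Its log2 values were 8.59, 6.11, 8.65 and 7.67 in control spleens 1 to 4 and 9.32, 9.21, 9.50 and 8.99 in lymphoma spleens 1 to 4. The control spleens thus differed among themselves by up to 5.82-fold, the lymphoma spleens by up to 1.43-fold, and the groups did not overlap. *Epb42*, which encodes protein 4.2, a link between band 3 and the skeleton, was at 8.84, 7.03, 8.91 and 8.03 in control spleens and at 9.09, 8.90, 9.04 and 8.85 in lymphoma spleens. Here the lymphoma spleens lay around the level of control spleens 1 and 3, and the groups overlapped. *Hemgn*, a nuclear regulator of haematopoietic cells, was at 8.51, 7.16, 8.76 and 7.81 in control spleens and at 9.01, 9.06, 9.12 and 9.01 in lymphoma spleens. Its SD was 0.72 over control spleens and 0.05 over lymphoma spleens, and their ratio of 13.6 was the largest among the 30 genes. *Gata1*, the master regulator of the lineage, did not follow this order, with 7.49, 7.52, 7.47 and 7.69 in control spleens and 7.64, 7.71, 7.64 and 7.73 in lymphoma spleens.

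**Figure D1:**
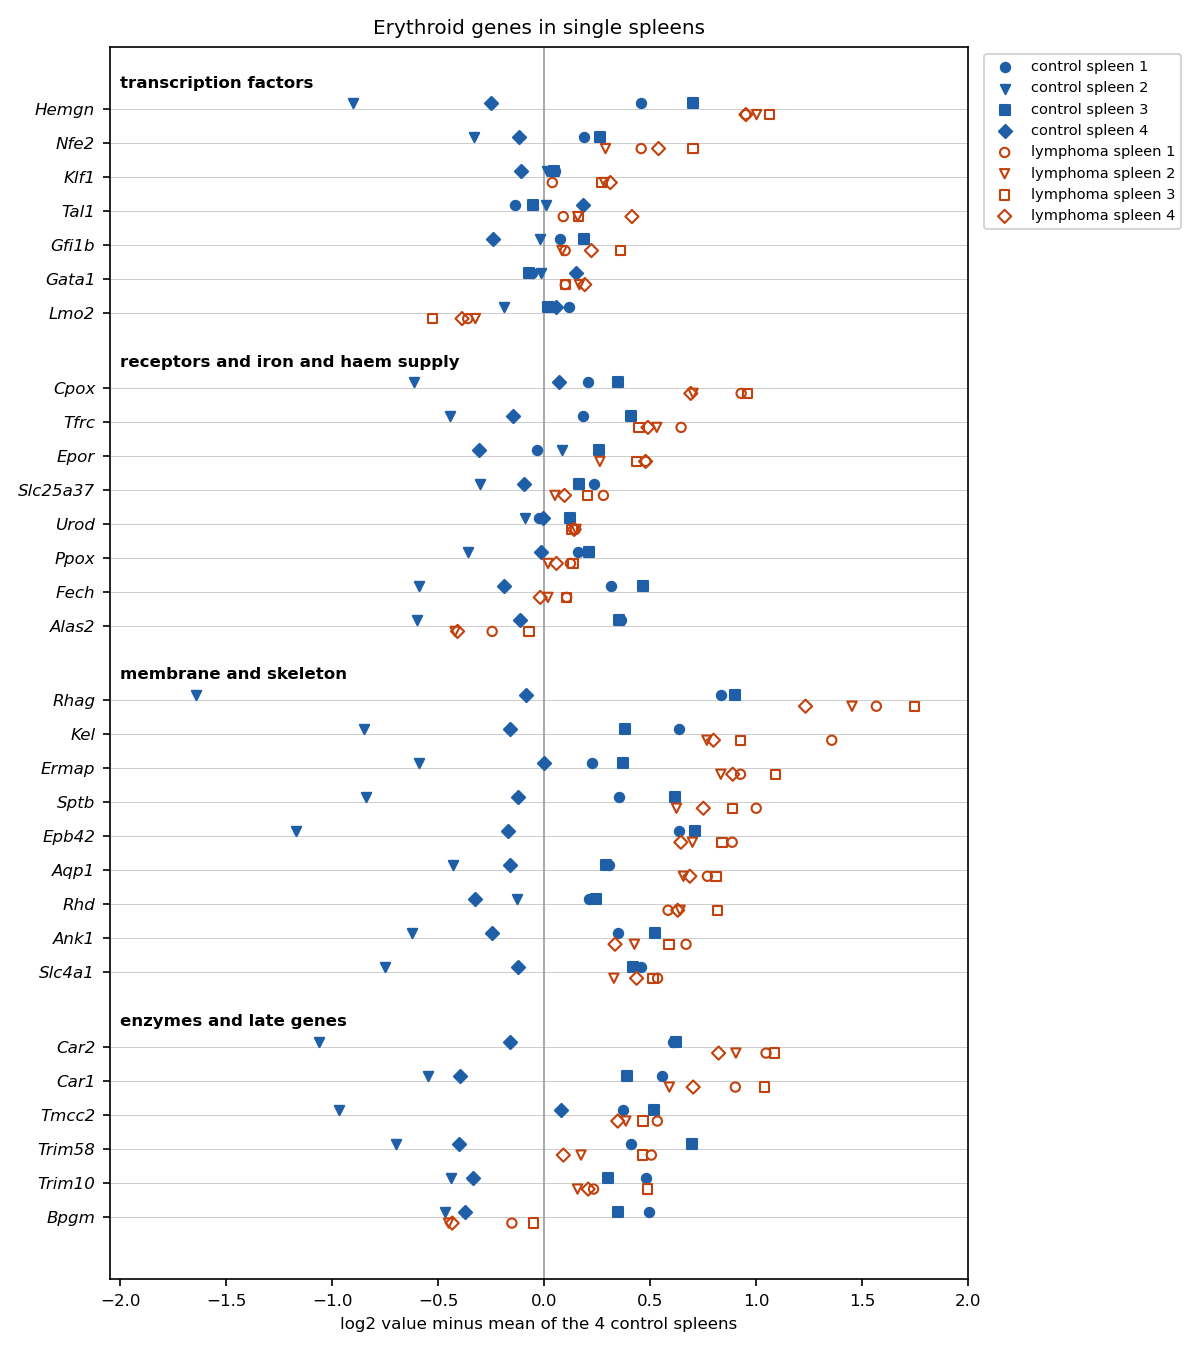
Log2 value of each of the 30 erythroid genes in each spleen, minus the mean of the 4 control spleens (horizontal axis, log2 units), with filled blue symbols for control and open orange symbols for lymphoma spleens and 1 symbol shape per replicate number. Control spleen 2 is the lowest control for 24 genes, and *Rhag* spans 6.11 to 8.65 in control spleens but 8.99 to 9.50 in lymphoma spleens.

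**Figure D2:**
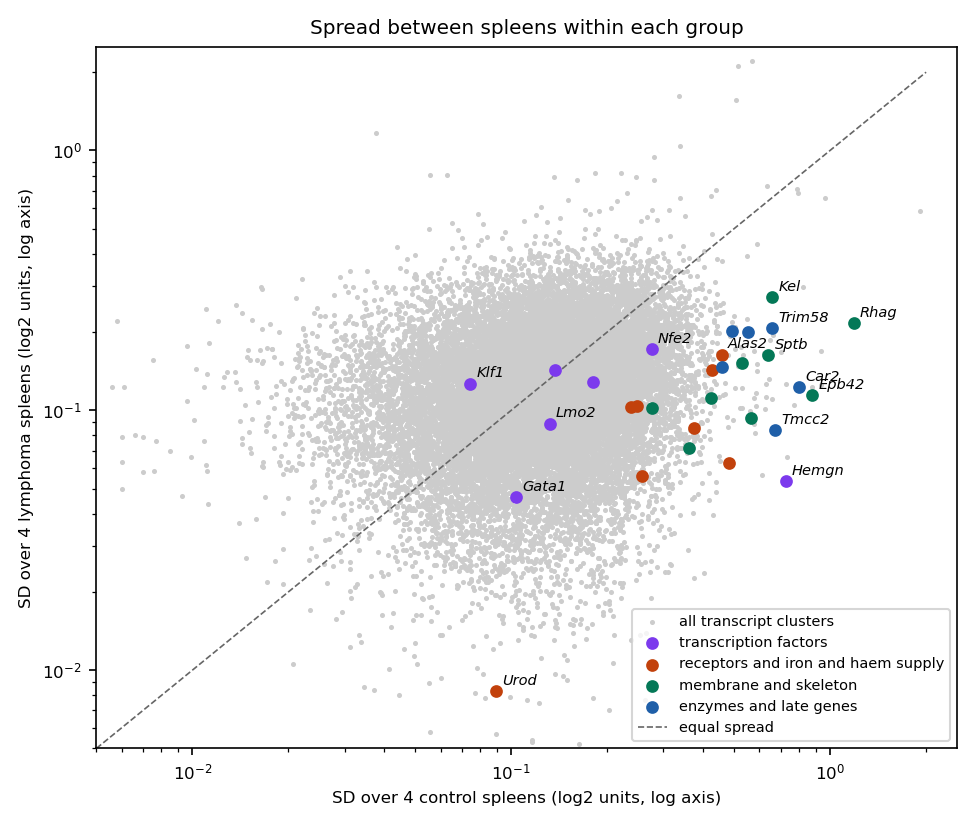
SD over the 4 control spleens (horizontal, log axis) against the SD over the 4 lymphoma spleens (vertical, log axis), with grey points for all transcript clusters, coloured points for the 30 erythroid genes by role and a dashed line of equal spread. Of the 30 genes, 28 lie on the side of larger spread in control spleens, and *Klf1* and *Tal1* on the other.

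The promoters of 5 genes are printed for the GATA motif, here AGATAA, 1 form of the sequence read by the factor GATA1, because these genes took different courses: *Rhag*, *Hemgn* and *Cpox* were higher in lymphoma spleens, *Epb42* differed widely among control spleens, and *Alas2* had a negative log2 fold change. Each window runs from 250 bases before the transcription start to 50 bases after it, in the direction of the gene, from RefSeq of GRCm38.p6. The *Alas2* window is chrX:150547167-150547466 (plus strand), that of *Cpox* chr16:58669958-58670257 (plus strand), that of *Hemgn* chr4:46404134-46404433 (minus strand), that of *Epb42* chr2:121036828-121037127 (minus strand) and that of *Rhag* chr17:40810899-40811198 (plus strand). Capitals mark AGATAA or its reverse complement TTATCT.
Alas2: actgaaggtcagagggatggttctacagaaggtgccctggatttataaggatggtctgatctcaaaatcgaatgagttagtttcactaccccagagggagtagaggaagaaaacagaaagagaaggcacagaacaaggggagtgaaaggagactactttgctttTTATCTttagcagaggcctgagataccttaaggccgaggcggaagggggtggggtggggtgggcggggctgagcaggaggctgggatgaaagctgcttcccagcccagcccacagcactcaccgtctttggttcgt
Cpox: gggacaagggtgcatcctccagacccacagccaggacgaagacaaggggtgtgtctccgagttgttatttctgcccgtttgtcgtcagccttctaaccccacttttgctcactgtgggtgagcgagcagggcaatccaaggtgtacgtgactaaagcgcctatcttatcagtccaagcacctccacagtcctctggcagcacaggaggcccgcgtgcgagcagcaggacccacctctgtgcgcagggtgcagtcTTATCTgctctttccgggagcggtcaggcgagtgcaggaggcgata
Hemgn: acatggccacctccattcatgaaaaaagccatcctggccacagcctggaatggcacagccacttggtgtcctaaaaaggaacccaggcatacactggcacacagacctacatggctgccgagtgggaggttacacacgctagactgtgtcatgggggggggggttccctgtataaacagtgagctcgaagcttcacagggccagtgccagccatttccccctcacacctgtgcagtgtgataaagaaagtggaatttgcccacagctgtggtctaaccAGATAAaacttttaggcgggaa
Epb42: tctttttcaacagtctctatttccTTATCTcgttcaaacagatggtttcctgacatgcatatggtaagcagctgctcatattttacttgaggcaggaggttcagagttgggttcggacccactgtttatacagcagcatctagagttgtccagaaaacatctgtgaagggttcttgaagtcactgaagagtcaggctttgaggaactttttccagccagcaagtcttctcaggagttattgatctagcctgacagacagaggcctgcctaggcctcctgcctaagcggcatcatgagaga
Rhag: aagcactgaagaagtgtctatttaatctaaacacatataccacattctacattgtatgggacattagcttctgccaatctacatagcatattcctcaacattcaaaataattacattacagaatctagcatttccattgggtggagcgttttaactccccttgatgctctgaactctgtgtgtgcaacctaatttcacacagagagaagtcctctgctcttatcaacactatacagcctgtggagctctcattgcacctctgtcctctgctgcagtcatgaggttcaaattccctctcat
The match in *Alas2* lay 86 to 81 bases before the start, and that in *Epb42* 226 to 221 bases before it, both on the opposite strand. *Cpox* had a match on the opposite strand 5 to 10 bases after the start, and *Hemgn* had 1 on its own strand at 29 to 34 bases after it. The *Rhag* window held neither AGATAA nor TTATCT, but it held a second form of the GATA motif, TGATAA, on the opposite strand 31 to 26 bases before the start. That form, not in capitals above, was also found in *Cpox*, 86 to 81 bases before the start on the opposite strand, and in *Hemgn*, 13 to 8 bases before it on its own strand. Windows were found for 22 of the 30 measured genes, and those of *Lmo2*, *Nfe2*, *Fech*, *Slc4a1*, *Ank1*, *Car1*, *Car2* and *Slc25a37* were not analysed here. AGATAA stood on either strand in 10 of the 22, or 45.5%, against 12.7% of 27025 genes with such a window. TGATAA, searched after the windows had been seen, stood on either strand in 7 of the 22, or 31.8%, against 10.4%, and other forms were not searched. The CACC box, the motif of KLF1, was searched as CCNCNCCC on either strand and was found in 15 of the 22, or 68.2%, against 51.9%. The E-box of TAL1, as CAGNTG on either strand, was found in 12, or 54.5%, against 54.6%. None of these motifs contains another, though neighbouring matches may share letters at their edges. AGATAA was present in 5 of the 10 genes with a window that were called higher and in 5 of the 12 that were not called.

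Between the groups, 13 of the 30 erythroid genes were higher in lymphoma spleens, 1 was lower and 16 were not called in a limma fit of lymphoma minus control, at a Benjamini-Hochberg adjusted p of at most 0.05 over all clusters. Among all clusters 18.2% were called higher and 17.2% lower. The median log2 fold change of the 30 genes was 0.44, against -0.06 over all clusters. It was positive for 27 genes and negative for *Lmo2*, *Alas2* and *Bpgm*, and *Rhag* was the 1 gene that differed by at least 2-fold. All 4 lymphoma spleens lay above all 4 control spleens in 14 genes and below them in 1, *Lmo2*, against 18.0% and 16.7% of all clusters. The count depended on how the spread was estimated, since 7 genes were called higher with a trended and robust moderation of the variances and 4 with an unmoderated test per cluster. Without control spleen 2, 13 genes were called higher and *Lmo2* and *Alas2* lower, and all 14 genes called with the 8 arrays were called in both fits.

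**Figure D3:**
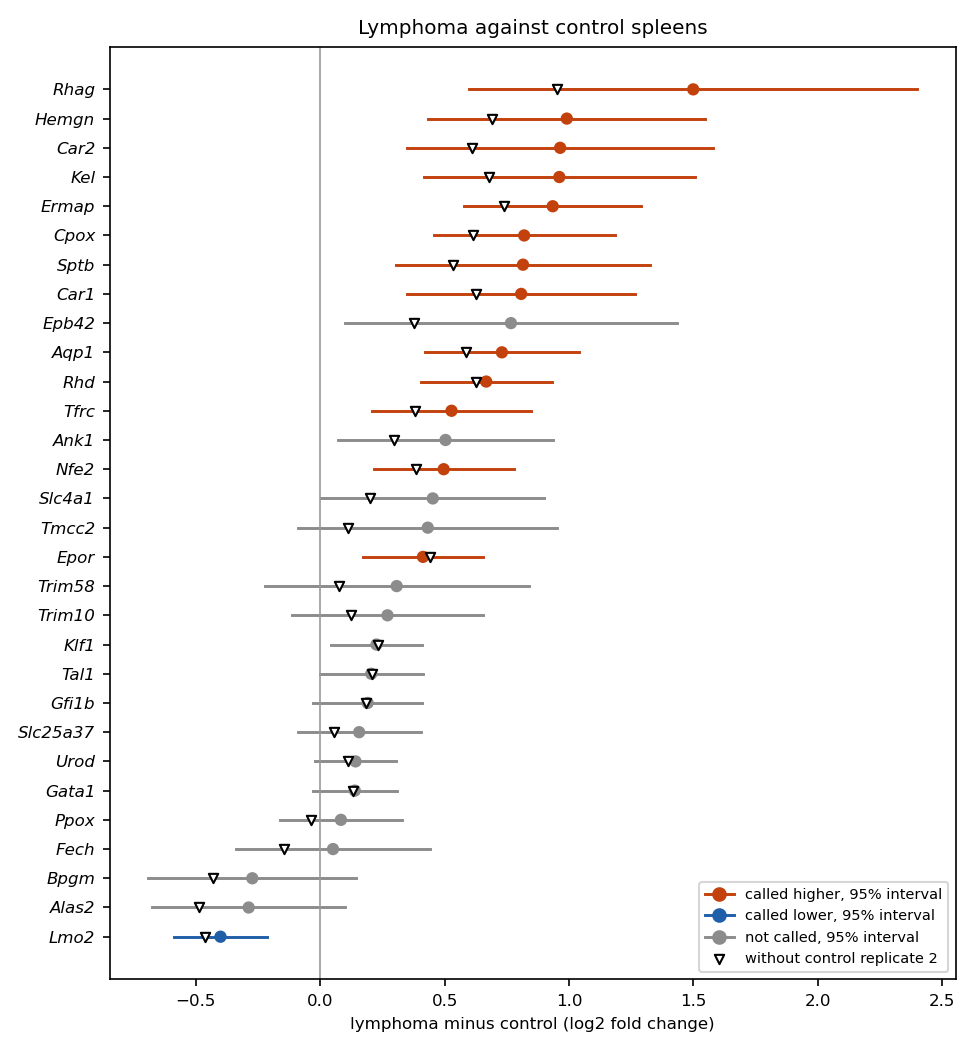
Log2 fold change of each erythroid gene, lymphoma minus control (horizontal axis), as points with 95% intervals from limma, orange for genes called higher, blue for the 1 called lower and grey for those not called, with open triangles for the values without control spleen 2. *Rhag* is at 1.50 and at 0.95 without that spleen, and *Lmo2* at -0.40.

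Among 7 regulators of transcription, 2 were higher, 1 was lower and 4 were not called, with a median log2 fold change of 0.20. *Hemgn* was higher by 0.99 on the log2 scale (standard error, SE, 0.26, limma adjusted p = 0.0088). *Nfe2*, a partner in the complex that drives globin genes, was at 6.49, 5.97, 6.57 and 6.18 in control spleens and at 6.76, 6.59, 7.0 and 6.84 in lymphoma spleens, a log2 difference of 0.50 (SE 0.13, limma adjusted p = 0.0094). It was not called in the unmoderated test (adjusted p = 0.067), and the stricter filter on dim clusters removed it. The groups did not overlap for either gene. *Lmo2*, an adaptor that joins TAL1 and GATA1 and that other blood and endothelial cells also express, was at 9.37, 9.07, 9.27 and 9.31 in control spleens and at 8.89, 8.93, 8.73 and 8.87 in lymphoma spleens. All lymphoma values lay below all control values, a log2 difference of -0.40 (SE 0.09, limma adjusted p = 0.0028). *Klf1*, the activator of adult globin genes, had 7.37, 7.33, 7.36 and 7.21 in control spleens and 7.35, 7.60, 7.59 and 7.63 in lymphoma spleens. Its log2 fold change of 0.23 was not called (limma adjusted p = 0.053), and without lymphoma spleen 1 it was 0.29 (limma adjusted p = 0.020). *Gata1*, *Tal1*, a master regulator of blood formation, and *Gfi1b*, a repressor of the erythroid and megakaryocytic lineages, had log2 fold changes of 0.14, 0.20 and 0.19, and none was called. *Tal1* lay between 7.94 and 8.26 in control and between 8.16 and 8.49 in lymphoma spleens, and *Gfi1b* between 8.36 and 8.79 and between 8.68 and 8.96, so that the groups overlapped. The intervals of these 3 reached 0.31, 0.41 and 0.41 at their upper ends.

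Of 8 genes of erythropoietin signalling, iron and haem supply, 3 were higher and 5 were not called, with a median log2 fold change of 0.15. *Tfrc*, the transferrin receptor that other dividing cells also use, was at 9.61, 8.98, 9.84 and 9.28 in control spleens and at 10.07, 9.96, 9.87 and 9.92 in lymphoma spleens, a log2 difference of 0.53 (limma adjusted p = 0.014). *Epor*, the erythropoietin receptor, was at 7.19, 7.31, 7.48 and 6.92 against 7.70, 7.49, 7.66 and 7.70, a log2 difference of 0.41 (limma adjusted p = 0.011). Neither pair of groups overlapped, though in *Epor* the margin was narrow, at 7.486 in lymphoma spleen 2 against 7.482 in control spleen 3. Both calls were lost in the unmoderated test (adjusted p = 0.090 and 0.059). *Slc25a37*, the mitochondrial iron importer mitoferrin, lay between 9.18 and 9.72 in control and between 9.53 and 9.76 in lymphoma spleens, and its log2 fold change of 0.16 was not called (limma adjusted p = 0.31).

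The haem enzymes differed among themselves. *Cpox*, coproporphyrinogen oxidase, was at 9.72, 8.90, 9.87 and 9.59 in control spleens and at 10.45, 10.22, 10.48 and 10.21 in lymphoma spleens. The groups did not overlap, and *Cpox* was higher by 0.82 on the log2 scale (SE 0.17, limma adjusted p = 0.0019). *Fech*, the ferrochelatase that inserts the iron, was at 9.31, 8.40, 9.46 and 8.81 in control spleens and at 9.10, 9.01, 9.10 and 8.98 in lymphoma spleens, and *Ppox*, which acts just before it, lay between 9.31 and 9.88 and between 9.69 and 9.81. In both, the lymphoma range lay within the control range. *Ppox* and *Fech* had log2 fold changes of 0.08 and 0.05 and were not called (limma adjusted p = 0.60 and 0.85). Without control spleen 2 both values were negative, at -0.036 and -0.15. *Urod*, which acts before it, had 8.80, 8.74, 8.95 and 8.82 in control spleens and between 8.96 and 8.98 in lymphoma spleens. Its groups did not overlap, but the log2 fold change of 0.14 was not called (limma adjusted p = 0.16). *Alas2*, the erythroid form of the first enzyme, was at 10.21, 9.25, 10.20 and 9.73 in control spleens and at 9.60, 9.42, 9.77 and 9.43 in lymphoma spleens. The lymphoma values all lay between control spleens 2 and 1, and the log2 fold change of -0.29 was not called (limma adjusted p = 0.24). Without control spleen 2 it was -0.49 and called (limma adjusted p = 0.014). *Alas1*, the form used in all tissues and no member of the 31 genes, was at 8.51, 8.37, 8.30 and 8.54 in control spleens and at 9.79, 9.89, 9.65 and 9.66 in lymphoma spleens. It was higher by 1.31 on the log2 scale (limma adjusted p = 1.49e-07), with SDs of 0.11 in both groups.

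**Figure D4:**
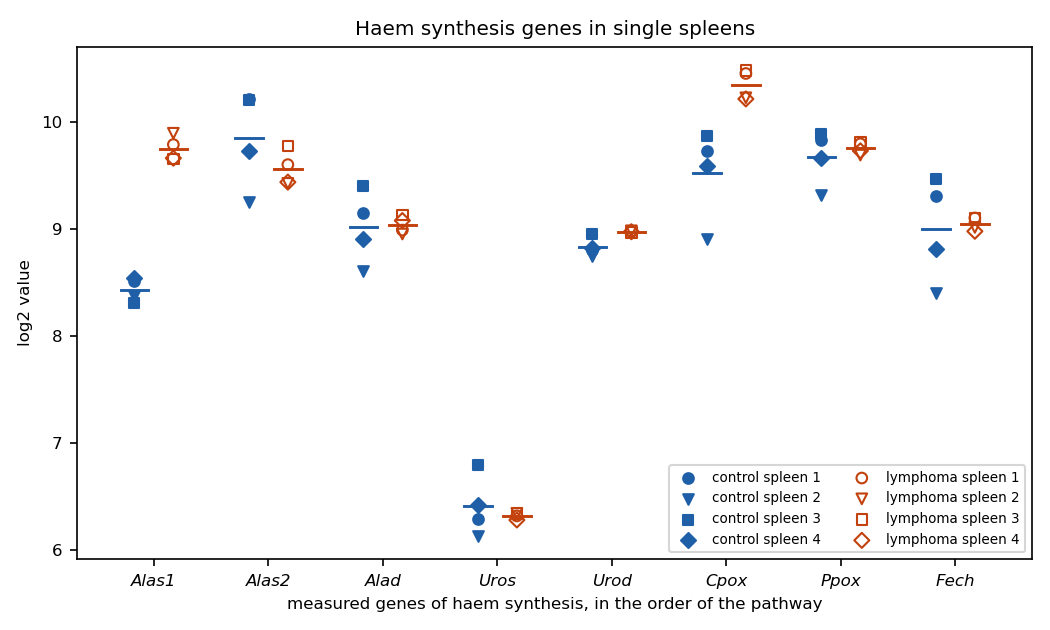
Log2 value (vertical axis) of the measured enzymes of haem synthesis in the order of the pathway, in each control spleen (filled blue symbols) and each lymphoma spleen (open orange symbols), with a line at each group mean. The groups are separate for *Alas1*, *Cpox* and, narrowly, *Urod*, whereas the lymphoma values of *Alas2*, *Alad*, *Uros*, *Ppox* and *Fech* lie within the range of the control values, and levels of different genes cannot be compared.

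Of 9 membrane and skeleton genes, 6 were higher and 3 were not called, and their median log2 fold change of 0.77 was the highest of the 4 roles. *Rhag* was higher by 1.50 (SE 0.42, limma adjusted p = 0.013), and by 0.95 without control spleen 2 (limma adjusted p = 0.0042). *Ermap*, an erythroid membrane protein of the immunoglobulin superfamily, was at 7.85, 7.03, 8.0 and 7.62 in control spleens and at 8.55, 8.46, 8.72 and 8.51 in lymphoma spleens. It was higher by 0.93 on the log2 scale (SE 0.16, limma adjusted p = 0.00060), the smallest adjusted p among the 30 genes. *Rhd*, the Rh blood group gene, rose by 0.67 (limma adjusted p = 0.00077), from 7.67, 7.33, 7.71 and 7.13 to 8.05, 8.10, 8.28 and 8.09. *Aqp1*, a water channel that endothelium also makes, rose by 0.73 (limma adjusted p = 0.0013), from 8.84, 8.10, 8.82 and 8.37 to 9.30, 9.19, 9.34 and 9.22. In each of these 4 genes the lowest lymphoma spleen lay above the highest control spleen. *Kel*, the Kell blood group protein, was at 7.59, 6.11, 7.34 and 6.80 against 8.31, 7.72, 7.88 and 7.75, a log2 difference of 0.96 (limma adjusted p = 0.0094). *Sptb*, the erythroid beta spectrin, was at 8.30, 7.11, 8.57 and 7.83 against 8.95, 8.57, 8.84 and 8.70, a log2 difference of 0.81 (limma adjusted p = 0.016) that was 0.53 without control spleen 2. The groups did not overlap in *Kel* or, by a narrow margin, in *Sptb*.

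The 3 membrane genes that were not called were *Slc4a1*, *Ank1* and *Epb42*. *Slc4a1*, the anion exchanger band 3, was at 11.004, 9.80, 10.97 and 10.43 in control spleens and at 11.08, 10.88, 11.06 and 10.98 in lymphoma spleens. *Ank1*, the ankyrin that ties band 3 to spectrin, was at 8.57, 7.60, 8.75 and 7.98 against 8.90, 8.65, 8.81 and 8.56. For these genes and *Epb42*, the lymphoma spleens lay close to control spleens 1 and 3, and well above control spleens 2 and 4. Their log2 fold changes were 0.45, 0.50 and 0.77 (limma adjusted p = 0.11, 0.068 and 0.072). Leaving out control spleen 1 gave 0.60, 0.62 and 0.98, and leaving out control spleen 3 gave 0.59, 0.68 and 1.0, and all 3 genes were then called (limma adjusted p between 0.013 and 0.047).

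Among 6 enzymes and late genes, 2 were higher and 4 were not called, with a median log2 fold change of 0.37. *Car1* and *Car2* encode carbonic anhydrases, of which *Car2* is also made by other cells. *Car2* was at 11.15, 9.48, 11.16 and 10.38 in control spleens and at 11.59, 11.45, 11.63 and 11.37 in lymphoma spleens, a log2 difference of 0.96 (SE 0.28, limma adjusted p = 0.018) that was 0.61 without control spleen 2. *Car1* was at 9.68, 8.57, 9.51 and 8.72 against 10.02, 9.71, 10.16 and 9.82, a log2 difference of 0.81 (limma adjusted p = 0.0094). Neither gene's groups overlapped. *Tmcc2*, *Trim10* and *Trim58*, of which the last encodes a ubiquitin ligase of late erythroblasts, had log2 fold changes of 0.43, 0.27 and 0.31 and were not called (limma adjusted p = 0.18, 0.26 and 0.36). *Tmcc2* was at 9.88, 8.54, 10.03 and 9.58 in control spleens and at 10.04, 9.89, 9.97 and 9.85 in lymphoma spleens. *Trim58* was at 7.03, 5.92, 7.31 and 6.22 against 7.12, 6.79, 7.08 and 6.71, and *Trim10* lay between 7.42 and 8.34 in control and between 8.02 and 8.35 in lymphoma spleens. In these genes, too, the low values were those of control spleen 2, and all lymphoma spleens lay above control spleens 2 and 4. *Bpgm*, which makes the regulator of oxygen release 2,3-bisphosphoglycerate, was at 8.46, 7.50, 8.32 and 7.60 in control spleens and at 7.81, 7.52, 7.92 and 7.53 in lymphoma spleens. Control spleens 1 and 3 stood above all lymphoma spleens, while control spleens 2 and 4 did not, and the log2 fold change of -0.27 was not called (limma adjusted p = 0.30). The calls of *Rhag*, *Kel*, *Sptb*, *Hemgn*, *Car1* and *Car2* were lost with the trended and robust moderation (adjusted p between 0.064 and 0.11) and with the unmoderated test, whereas *Lmo2*, *Cpox*, *Rhd*, *Ermap* and *Aqp1* kept theirs in every alternative run.

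Because most erythroid genes went up and down together across the control spleens, each was also read against the mean of the other 29 on the same array, a description chosen after the values were seen. On this scale 7 genes lay higher in all lymphoma spleens than in any control spleen, against 2.57% of all clusters read against the mean of the 30, and 6 lay lower, against 36.0%. The mean of the 30 was itself higher in lymphoma spleens, by 0.45, so this scale lowers all other clusters there. These shares therefore follow from the scale and are no yardstick for the 30 genes. The higher genes were *Rhag*, *Hemgn*, *Car2*, *Kel*, *Ermap*, *Cpox* and *Aqp1*, with differences from 0.29 to 1.08 log2 units. The lower genes were *Lmo2*, *Alas2*, *Bpgm*, *Fech*, *Ppox* and *Slc25a37*, with differences from -0.88 to -0.31. The relative value of *Alas2* was nearly the same in all control spleens, at 1.52, 1.38, 1.45 and 1.48, and in all lymphoma spleens, at 0.68, 0.64, 0.83 and 0.63. Its SD on this scale was 0.06 over control spleens and 0.09 over lymphoma spleens, against 0.46 and 0.16 for its log2 values, and the mean difference was -0.77. *Aqp1* behaved in the same way, at 0.11, 0.19, 0.03 and 0.08 in control spleens and at 0.38, 0.40, 0.38 and 0.40 in lymphoma spleens. *Bpgm* was at -0.28, -0.43, -0.49 and -0.73 in control spleens and at -1.16, -1.33, -1.09 and -1.34 in lymphoma spleens. *Rhag* remained variable among control spleens on this scale, at -0.15, -1.86, -0.14 and -0.65, and was at 0.40, 0.42, 0.55 and 0.16 in lymphoma spleens. *Slc4a1*, *Ank1*, *Nfe2*, *Tmcc2* and *Epor* had differences between -0.04 and 0.05, so on average they changed by about as much as the erythroid genes around them.

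**Figure D5:**
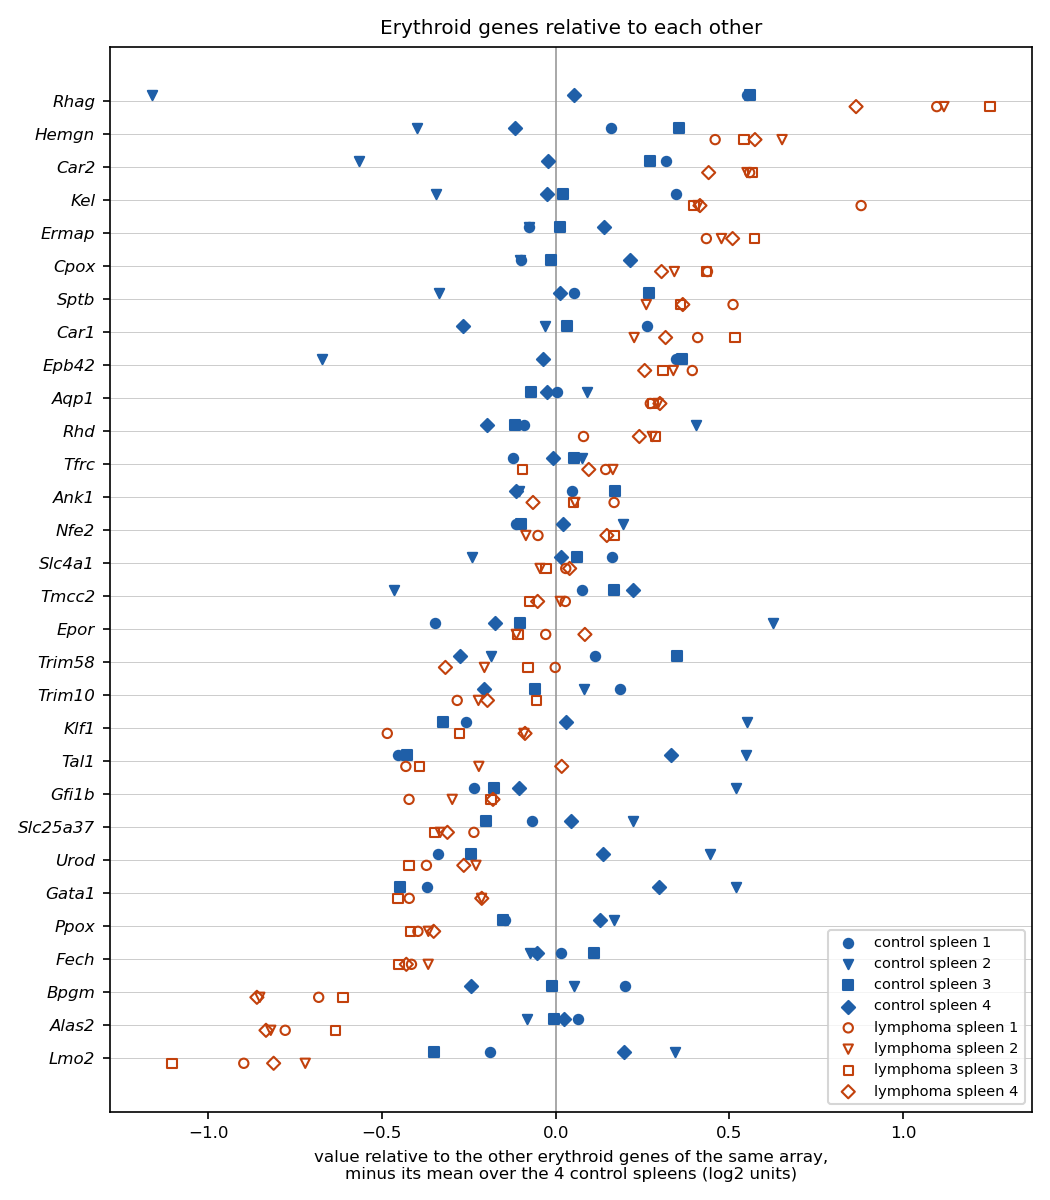
Value of each erythroid gene relative to the mean of the other 29 on the same array, minus its mean over the 4 control spleens (horizontal axis, log2 units), with filled blue symbols for control and open orange symbols for lymphoma spleens. The lymphoma points lie to the left of all control points for *Lmo2*, *Alas2*, *Bpgm*, *Fech*, *Ppox* and *Slc25a37* and to the right for 7 genes, of which *Rhag* differs by 1.08.

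Other genes of the red cell pathways, not all of them confined to that lineage, were read from 7 lists. Of these genes, 98 were measured, with 38 called higher and 9 lower, against 18.2% and 17.2% of all clusters. Of 13 further genes of haem synthesis and transport, 8 were higher and 1, *Clpx*, lower (median log2 fold change 0.50). Besides *Alas1*, *Slc48a1*, a haem transporter of the macrophage that recycles red cells, rose by 0.92 and *Glrx5*, a mitochondrial protein of iron-sulphur assembly, by 0.85. *Glrx5* showed the order of the control spleens, at 9.15, 8.26, 9.13 and 8.79, while its lymphoma values lay between 9.63 and 9.73. Of 13 genes of iron uptake and storage, 7 were higher and 1, *Ireb2*, lower, with a median of 0.21. They included *Ftl1*, the light chain of ferritin, at 0.73, its iron chaperone *Pcbp1* at 0.75 and *Snx3*, which recycles the transferrin receptor, at 0.50. Of 17 further genes of the membrane and skeleton, 7 were higher and 1, *Bcam*, lower, with a median of 0.33. *Dmtn*, which bundles actin at the skeleton's junctions, rose by 1.14, the amino acid transporter gene *Slc43a1* by 1.06 and the adducin gene *Add2* by 0.79.

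Of 18 partners of the erythroid regulators, 5 were higher and 3 lower (median log2 fold change 0.11). *E2f2*, a cell cycle factor that erythroblasts need for their last divisions, rose by 1.26, and *Zfpm1*, the GATA1 cofactor FOG1, *E2f4* and *Nfe2l1* by 0.57, 0.52 and 0.26. *Sox6*, a repressor of embryonic globin genes, was at 7.83, 6.29, 7.38 and 6.86 in control spleens and at 8.11, 7.76, 8.15 and 7.85 in lymphoma spleens. *Sox6* thus repeated the wide spread among control spleens, and its log2 fold change was 0.88 (limma adjusted p = 0.013), a call lost with the trended and robust moderation (adjusted p = 0.076) and the unmoderated test (adjusted p = 0.11). *Bcl11a*, a globin repressor that B cells also express, was lower by a log2 fold change of -0.75, and *Lyl1* and *Ldb1* by -0.55 and -0.35. Of 19 further genes of late maturation and red cell metabolism, 7 were higher and 2, *Pklr* and *Epb41l4b*, lower, with a median of 0.08. The peroxiredoxin gene *Prdx2* rose by 0.97, hexokinase 1, *Hk1*, by 0.85 and the biliverdin reductase gene *Blvrb* by 0.76. Of 15 genes of erythropoietin and stress signalling, 4 were higher and 1, *Sh2b3*, lower, with a median of 0.05. *Bmpr1a*, a receptor of the BMP signal for stress erythropoiesis in the spleen, rose by 1.59, the kinase gene *Pim1* by 1.36, and *Socs3* and *Socs2*, inhibitors of cytokine receptors, by 1.25 and 0.54. *Pim1* and *Socs3* also respond to cytokines in lymphocytes and myeloid cells. Of the globin list, *Hba-x*, *Hbb-y* and *Hbb-bh1*, all embryonic, were measured and none was called. *Hbb-y* was at or below the background median on 7 arrays and *Hbb-bh1* on 4. The adult globin genes were not analysed here.

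Genes of other cells were read beside these values, and their part in the results was not tested. The counts below stand beside 18.2% of all clusters called higher and 17.2% called lower. All 14 measured proliferation genes were higher in lymphoma spleens, with a median log2 fold change of 1.56. Their mean log2 level was 8.60, 8.16, 8.53 and 8.24 in control spleens 1 to 4, so control spleens 2 and 4 were the lower ones here too, and it lay between 9.87 and 10.03 in lymphoma spleens. A list of 14 genes covered red pulp macrophages, the cells that take up aged red cells, and haem recycling. Not all of these genes are confined to that cell type. Of the 14, 10 were higher, among them *C1qa*, *C1qb* and *Cd5l* at 2.59, 2.45 and 1.95, and *Cd163*, *Slc40a1* and *Hpx* were lower, at -1.09, -0.63 and -0.27. The mean level of the 14 genes lay between 8.64 and 8.81 in control spleens, with control spleen 2 at 8.74, and between 9.44 and 9.55 in lymphoma spleens. Of 15 genes of megakaryocytes and platelets, which share GATA1, TAL1, GFI1B and NFE2 with the red cell lineage, *F2rl2* and *Pf4* were higher, by 0.61 and 0.34, and 13 were not called, with a median of 0.06. *Pf4* was no longer called without control spleen 2 or without lymphoma spleen 1 or 3 (limma adjusted p = 0.083, 0.074 and 0.089), nor in the unmoderated test. Their mean level lay between 8.02 and 8.20 in control spleens, lowest in control spleen 2, and between 8.13 and 8.40 in lymphoma spleens. Of 12 genes of progenitors, the granule genes *Mpo*, *Ctsg*, *Elane* and *Prtn3* were higher, at 2.38, 2.10, 2.09 and 0.41, and *Meis1* was lower, at -0.34. The other 7 were not called, and the list median was 0.05. The mean level of the 12 genes lay between 7.20 and 7.28 in control spleens and between 7.66 and 7.89 in lymphoma spleens.

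Of 12 endothelial genes, *Ecscr*, *Eng* and *Plvap* were higher, *Pecam1* and *Stab2* lower and 7 not called, not far from the 18.2% and 17.2% of all clusters. Of 10 mast cell and basophil genes, *Mcpt8*, *Hdc* and *Prss34* were higher, by 0.85, 0.58 and 0.50. *Cpa3* and *Mcpt4* were also called higher, but they were at or below the background median on 1 and on 4 control arrays, so no size is given. Of 7 eosinophil genes *Prg2* was higher and *Il5ra* lower, the latter not in the unmoderated test (adjusted p = 0.053). Mean levels in control spleens spanned 0.12 log2 units in each of these 3 lists, which is less than the 0.88 of the 30 erythroid genes. The spleen's own lymphocyte and myeloid markers were present in both groups. Of 7 B cell genes 7 were lower, with a median of -0.91, of 7 T cell genes *Cd4*, *Cd3e*, *Cd5* and *Cd3g* were higher, with a list median of 0.58, and of 9 neutrophil genes 8 were higher, with a median of 3.08. The mean level of the B cell genes lay between 11.52 and 11.61 in the 4 control spleens, and that of the T cell genes between 9.37 and 9.50. The B and T cell lists thus did not show the spread of the erythroid genes. That of the neutrophil genes lay between 6.69 and 6.98, a span of 0.28, lowest in control spleen 2 and next in control spleen 4. In 8 genes of adipocytes, a list gathered after the values were seen, the mean level was 6.84, 7.48, 6.91 and 7.21 in control spleens 1 to 4, with the highest value in control spleen 2 and the next in control spleen 4, and it spanned 5.96 to 8.45 in lymphoma spleens. Gathered in the same way, *Uty*, *Kdm5d* and *Eif2s3y* of the Y chromosome were lower in lymphoma spleens by log2 fold changes of -1.25, -1.38 and -1.28, with mean levels between 9.60 and 9.75 in control spleens and between 7.82 and 8.79 in lymphoma spleens. The methods speak of female animals for in vivo studies, and the labels do not give the sex. The levels of these 3 genes in control spleens lay well above the median of all clusters, 7.19 to 7.21 on the control arrays. The statement of female animals therefore cannot be taken to hold for the control samples. The part of sex in the differences between the groups was not tested and cannot be told apart from disease and *Vav1*.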

How the data were processed

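Total RNA from 4 control and 4 lymphoma samples of spleen was hybridised to single-colour Clariom S HT arrays from Affymetrix, 1 per sample, and samples were grouped by the genotype in their labels. The authors deposited log2 values from robust multichip average, and the submitters' processing notes name R 3.6.3. That procedure corrects the background, equalises the distribution of probe signals between arrays and summarises the probes of each cluster. It keeps no information on total RNA, so values are relative to the rest of each array. After removal of 6923 control probe sets, 22206 transcript clusters were tested in R 4.3.3 with limma 3.58.1 (lmFit and eBayes, two-sided, Benjamini-Hochberg adjustment over all clusters), and a cluster was called at an adjusted p of at most 0.05. Clusters were named from the platform annotation, and for a gene with several clusters the brightest on average was read. The number of arrays limits the precision, and no batch or date was given in the sources used here. The 31 genes and the lists were chosen with earlier results of these data known. The text names the 31 genes, the called genes with the 3 largest changes in each list and every gene that a count of 5 or fewer covers. The single values shown for *Glrx5* and *Sox6* were chosen after they were seen. Counts over a list are descriptions, set beside the share of all clusters. The limma fit was tested on simulated arrays with independent clusters and the same SD in both groups. Most erythroid genes had neither property, so that test does not bear on how their calls depend on the variance model. The alternatives were the replicate block, the normalisation, the moderation of variances, array weights, filters on dim clusters, a stricter threshold and each array left out.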

Additional observations from a re-analysis of the deposited data

Results flagged for a closer look

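In *Klf1*, lymphoma spleen 1 lay apart from the others of its group, at 7.35 against 7.59 to 7.63. Its gap to the nearest spleen was 0.858 of the range of the 4 lymphoma spleens, above the critical value of Dixon's test for 4 samples. This was 1 of 62 groups of 4 tested, and chance flags about 1 in 20 groups.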

How the results depend on the processing

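Of the 30 erythroid genes, 14 had the same call in every alternative that tested them, *Trim58* being removed by the stricter filter on dim clusters, among them 5 of the 14 called genes. The number called higher, 13 with all arrays, was 7 with a trended and robust moderation, 4 with an unmoderated test per cluster and 8 at an adjusted p of at most 0.01. At that threshold 2166 clusters of the whole array and 4 of the other pathway genes were lower. With each array left out in turn, 13 to 16 erythroid genes were higher and 1 to 2 lower, the second, *Alas2*, without control spleen 2. Over all clusters, 3565 to 3910 were then higher and 3062 to 3670 lower, and of the other pathway genes 35 to 41 and 6 to 9. The groups did not overlap, with lymphoma spleens higher, in 14 to 16 genes with each array left out, in 13 with cyclic loess and with the stricter filter on dim clusters, and in 10 with equal array medians. The mean difference lay between 0.28 and 0.57, and the median SD between 0.28 and 0.52 over control spleens and between 0.11 and 0.12 over lymphoma spleens. The range in place of the SD had medians of 0.96 and 0.26. *Fech* changed sign without control spleen 2 (-0.15) and without control spleen 4 (-0.012), and *Ppox* without control spleen 2 (-0.036). With single arrays left out, their values reached up to 0.21 and 0.15. *Klf1* was called with cyclic loess and with both filters on dim clusters, and *Ank1* and *Epb42* with the stricter filter.

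The replicate numbers are shared between the groups, and the correlations of the deviations of same-numbered samples were 0.12, 0.04, 0.04 and 0.17. Differently numbered samples were not set beside them, so these values cannot decide whether the numbers mark a pairing. With the replicate block, 16 erythroid genes were higher and 1 lower, the added ones being *Slc4a1*, *Ank1* and *Epb42* (adjusted p = 0.043, 0.019 and 0.030). Over all clusters, 4039 were higher and 3983 lower.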
